A study of Mus musculus with 8 samples.

Results

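The genes described here are 9 listed members of the insulin-like growth factor (IGF) system: the ligands Igf1 and Igf2, the receptors Igf1r and Igf2r, and the binding proteins Igfbp2, Igfbp3, Igfbp4, Igfbp6 and Igfbp7. They were found by symbol among the 22552 genes of the deposited mRNA table, and all 9 were present. The list does not include the binding protein gene Igfbp5, so rankings, sums and shares of binding proteins below leave it out. The tissue was brown adipose tissue, a fat that burns lipid for heat, from 2-month-old mice on a mixed 129SV::FVB/N::C57BL/6 background. The WT group was mmu-mir-193b +/+ and the Null group mmu-mir-193b -/-, which lacks mir-193b together with its cluster partner mir-365-1. Per the labels' protocols, females with MMTV-Cre and 1 floxed allele were mated with floxed heterozygous males, and the Cre transgene was then bred out. The labels describe 3 WT and 3 Null mRNA-seq samples and 1 WT and 1 Null microRNA-seq sample, and do not give the sex of the animals. The authors' mRNA table holds 1 combined value per genotype (called WT pool and Null pool), so no value below has an SD, no difference has a replicate check, and none was tested. The microRNA values come from 1 library per genotype, and the depth behind all values is unknown.

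IGF1 and IGF2 are small secreted hormones related to insulin that act through the receptor tyrosine kinase IGF1R. IGF2R binds IGF2 without such signalling, takes it into the cell for breakdown, and also carries newly made lysosomal enzymes that bear mannose 6-phosphate. Secreted binding proteins hold most of the ligand and so set how much can reach the receptor. Fat is a source of IGF1 outside the liver and responds to growth hormone, and Igf2 is an imprinted gene whose expression in most mouse tissues declines after birth.

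The genotypes are defined by the deleted microRNAs, so their mature sequences are shown first, 5′ to 3′ from RefSeq (build GRCm38.p6), with the seed, bases 2 to 8, in capitals. They have different seeds.
miR-193b-3p: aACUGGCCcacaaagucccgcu
miR-365-3p: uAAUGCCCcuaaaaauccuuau
In the microRNA libraries the level of miR-193b-3p was 3705 RPM in WT against 11.5 RPM in Null. RPM is the heading of the deposited columns; their sums, 1559381 and 1578515, exceed what the heading allows, so the total to which reads were scaled is unclear and a value is not a share of the listed reads. miR-365-3p, which is also made from a second gene copy outside the cluster, was at 1442 RPM in WT against 798 RPM in Null.

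Levels are in FPKM, fragment counts divided by transcript length and by library size, which is meant to let genes be compared within a pool. Such comparisons hold only where both values are sound, and some deposited values are doubtful, as given under the processing. A gene was compared between pools if its mean was at least 1 FPKM, which held for 11597 genes and for 8 of the 9 members. The difference is given as the log2 ratio, log2((Null + 1)/(WT + 1)), a scale that understates the change of low genes. Of the 8 members, 2 were higher in Null by 1.5-fold or more (Igf1 and Igfbp7), none was lower by that much, and 6 lay within 1.5-fold. Of all genes compared, 7.87% were higher and 6.75% lower by 1.5-fold or more. The count of 2 among 8 members is small, and nothing particular to the family was read from it. The median log2 ratio was 0.03 over the 8 members and 0.01 over all genes compared.

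**Figure D1:**
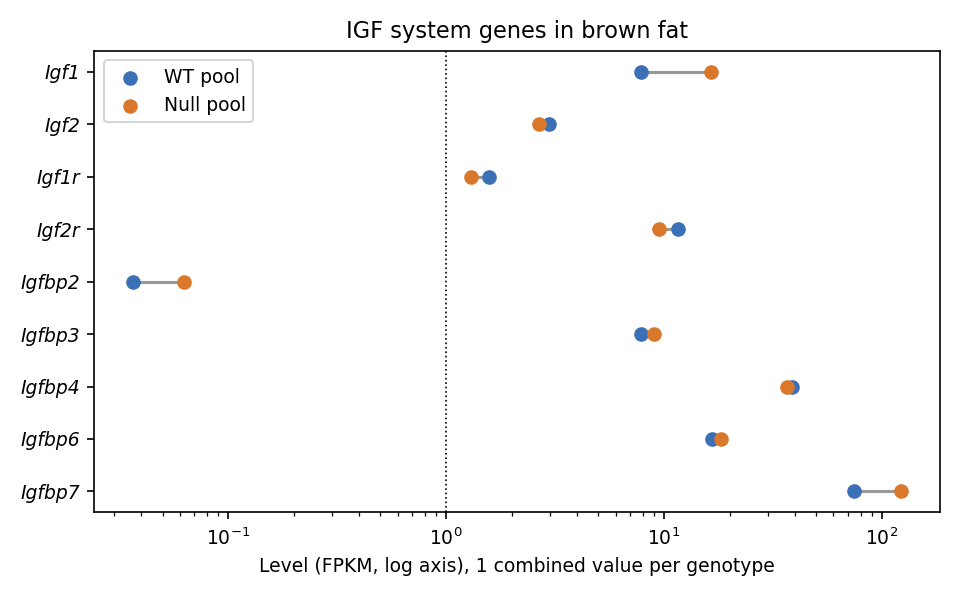
Level of each of the 9 genes in the WT pool (blue) and the Null pool (orange), in FPKM on a log axis; the dotted line marks 1 FPKM. Each point is 1 combined value per genotype with no error; Igf1 and Igfbp7 have the widest gaps among the genes above 1 FPKM, and Igfbp2 lies far below that line in both pools.

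Igf1 was the member with the largest difference. This hormone gene was at 7.84 FPKM in WT against 16.5 FPKM in Null, a direct ratio of 2.10 and a log2 ratio of 0.99. The Null value was thus the higher one, short of 2-fold with 1 FPKM added to each pool and past it without. By 2-fold or more on the log2(FPKM + 1) scale, 2.17% of all genes compared were higher and 1.65% lower. Of the genes compared, 97.7% had a lower log2 ratio than Igf1 and 262 had a higher one. By level, Igf1 stood above 70.4% of all 22552 genes in WT and above 81.9% in Null.

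Igf2 did not share this difference. It was at 2.98 FPKM in WT against 2.68 FPKM in Null, a log2 ratio of -0.11. Both values were low, and the Null value was slightly below that of WT. An antisense gene of the Igf2 locus, Igf2as, was at 0.0382 and 0.0763 FPKM, far below Igf2 in both pools. In WT there were 2.63 Igf1 FPKM for each Igf2 FPKM, and in Null 6.16. Igf1 made up 72.5% of the summed ligand level in WT and 86.0% in Null, and no linear scaling of a whole pool can alter these ratios.

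The sequence before the RefSeq start of a gene was set beside these levels for the 2 members that were higher in Null, Igf1 and Igfbp7, and for Igfbp4, an abundant member within 1.5-fold. Each line gives 250 bases from the RefSeq promoter table (GRCm38.p6), 5′ to 3′ on the gene's strand and ending just before the start. Capitals mark matches, on either strand, to CCAAT (the CCAAT box), TATAAA (the TATA box), GGGCGG (the GC box) or TTCNNNGAA (a core bound by STAT factors); the matches shown do not overlap.
Igf1, chr10:87860861-87861110, + strand: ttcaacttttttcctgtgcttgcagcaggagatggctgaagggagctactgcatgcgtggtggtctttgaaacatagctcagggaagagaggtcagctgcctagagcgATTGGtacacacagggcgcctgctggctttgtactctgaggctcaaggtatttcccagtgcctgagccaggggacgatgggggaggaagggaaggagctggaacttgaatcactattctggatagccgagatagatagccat
Igfbp7, chr5:77408046-77408295, - strand: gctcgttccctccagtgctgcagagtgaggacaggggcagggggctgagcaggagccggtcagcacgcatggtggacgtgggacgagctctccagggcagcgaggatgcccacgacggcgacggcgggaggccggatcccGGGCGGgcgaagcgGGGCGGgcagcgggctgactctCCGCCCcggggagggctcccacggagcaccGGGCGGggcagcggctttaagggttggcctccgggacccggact
Igfbp4, chr11:99040994-99041243, + strand: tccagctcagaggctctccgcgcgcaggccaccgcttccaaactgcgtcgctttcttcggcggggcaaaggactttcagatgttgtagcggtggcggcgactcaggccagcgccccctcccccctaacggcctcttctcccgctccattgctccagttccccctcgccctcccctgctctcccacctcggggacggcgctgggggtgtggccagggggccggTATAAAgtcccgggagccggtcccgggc
The windows of the 2 genes that were higher in Null had no searched motif in common. The Igf1 window held 1 CCAAT match and 5 CG dinucleotides, and the Igfbp7 window held 4 GGGCGG matches and 26 CG dinucleotides. The Igfbp4 window held a TATAAA match that begins 28 bases before the start, and 22 CG dinucleotides. Over all 32851 windows of this length, 33.8% held CCAAT, 32.7% GGGCGG, 12.4% TATAAA and 7.02% TTCNNNGAA, and the median number of CG dinucleotides was 6. None of the windows of the 9 members held TTCNNNGAA. The Igf1r window was the richest in CG dinucleotides among the members, with 42, more than 99.1% of all windows. Igf1 has other known start sites that lie outside the window shown.

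Both receptor genes were slightly lower in Null and within 1.5-fold. Igf1r, the signalling receptor, was at 1.57 FPKM in WT against 1.30 FPKM in Null, a log2 ratio of -0.16. Igf2r, the clearance and sorting receptor, was at 11.6 and 9.49 FPKM, a log2 ratio of -0.27. Among the genes compared, 32.0% had a lower ratio than Igf1r and 22.7% a lower ratio than Igf2r, so neither stood near the edge of the distribution. The balance between the receptors was close in both pools, at 7.40 Igf2r FPKM per Igf1r FPKM in WT and 7.29 in Null. The insulin receptor gene Insr, whose product can pair with IGF1R, was at 18.5 and 14.3 FPKM, which was 11.7 times the Igf1r level in WT and 11.0 times in Null. Airn, the noncoding antisense RNA of the Igf2r locus, was at 12.5 FPKM in WT against 19.5 FPKM in Null. Where Airn and Igf2r overlap, unstranded counting cannot tell them apart, and the sources used here do not say whether strand was used.

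**Figure D2:**
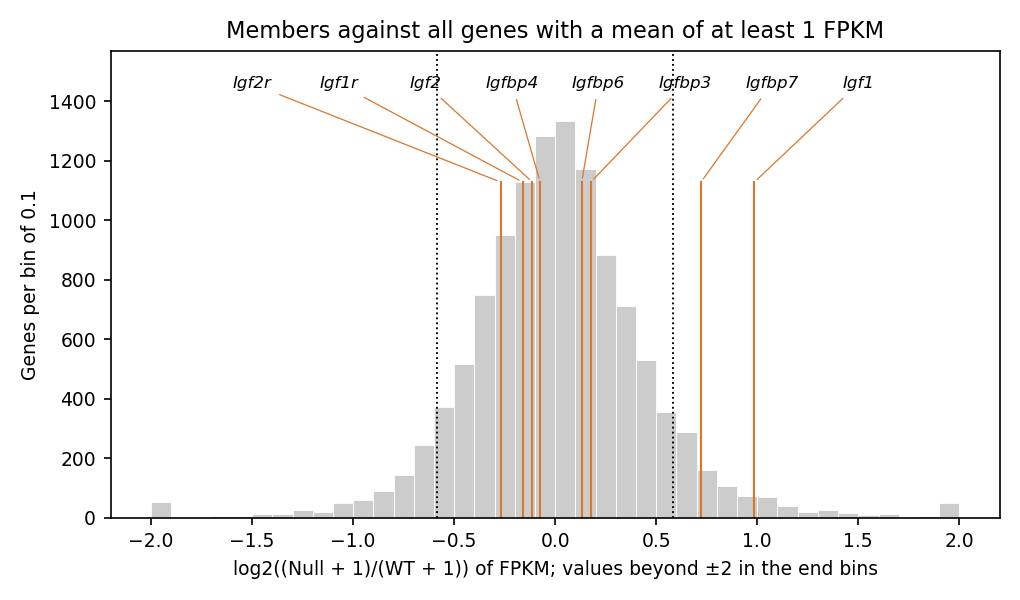
Histogram of the log2 ratio of Null to WT, log2((Null + 1)/(WT + 1)) of FPKM, over the 11597 genes whose mean was 1 FPKM or more, with orange lines at the 8 members that passed this filter and dotted lines at 1.5-fold. Igf1 and Igfbp7 lie to the right of the upper dotted line, and the other 6 members lie within the central mass.

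Among the listed binding proteins, Igfbp7 was the most abundant in both pools. It also had the largest difference of those that passed the filter. Igfbp7 encodes a secreted protein typical of blood vessel endothelium that binds IGFs weakly. It was at 74.2 FPKM in WT against 123 FPKM in Null, a direct ratio of 1.66 and a log2 ratio of 0.72. The Null value was the higher one, and 95.3% of the genes compared had a lower ratio. It stood above 95.4% of all genes in WT and above 97.1% in Null.

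The other listed binding proteins that passed the filter lay within 1.5-fold. Igfbp4, whose product restrains IGF action until it is cleaved, was at 38.8 FPKM in WT against 36.8 FPKM in Null, a log2 ratio of -0.07. Igfbp6, whose product prefers IGF2 over IGF1, was at 16.7 and 18.3 FPKM, a log2 ratio of 0.13. Igfbp3, the main carrier of IGFs in blood, was at 7.84 and 8.99 FPKM, a log2 ratio of 0.18. The signs of the small Igfbp3 and Igfbp6 ratios depended on scaling: with both columns scaled to the same sum they were -0.02 and -0.07. Relative to the median of all genes they changed little, at 0.17 and 0.11 in that setting against 0.17 and 0.13 as deposited. Igfbp2 was at 0.0365 and 0.0624 FPKM and did not pass the filter, so no ratio is given. Igfbp1, the gene next to Igfbp3 in RefSeq order, was listed at 0 in both pools.

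Summed over the 5 listed binding proteins, the level was 137 FPKM in WT against 187 FPKM in Null. Igfbp7 made up 54.0% of the sum in WT and 65.7% in Null, and 98.3% of the difference between the sums. Without Igfbp7 the sums were 63.3 and 64.2 FPKM. The share of Igfbp4 was 28.2% in WT and 19.7% in Null, that of Igfbp6 12.1% and 9.80%, and that of Igfbp3 5.70% and 4.80%. These shares therefore differed mainly through Igfbp7, since the other levels lay close together. The summed ligands stood at 10.8 FPKM in WT against 19.2 FPKM in Null, so that there were 12.7 binding protein FPKM per ligand FPKM in WT and 9.76 in Null. Igf1 and Igfbp3 were level in WT, with a ratio of 1.00, and Igf1 was 1.84 times Igfbp3 in Null.

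**Figure D3:**
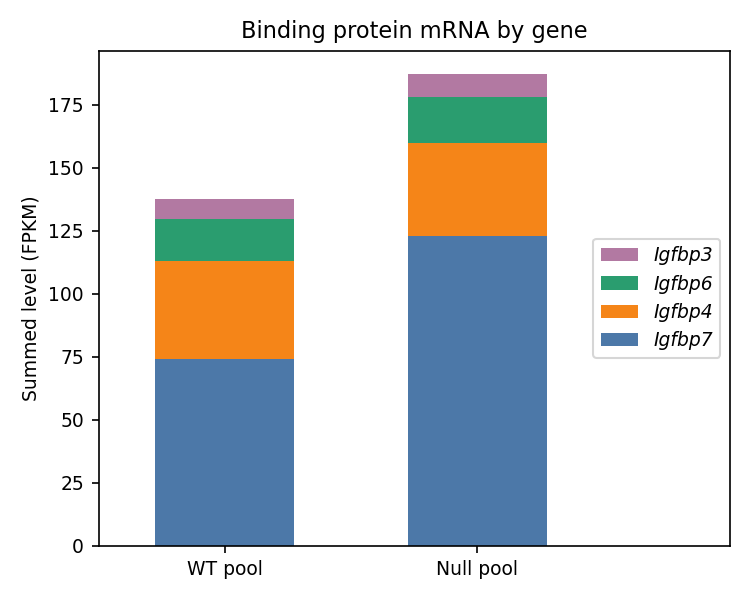
Summed FPKM of 4 binding protein genes in the WT and the Null pool, stacked by gene from 0 (Igfbp2, below 0.1 FPKM in both pools, is not drawn). The sum is larger in Null, 187 against 137 FPKM, and the Igfbp7 part (blue) accounts for nearly all of the gap.

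Proteins that control how much ligand is free were described from a list of 10 genes. Of these, 3 passed the filter and none lay past 1.5-fold on the log2(FPKM + 1) scale. Htra1, a secreted protease that cleaves binding proteins, was at 23.3 FPKM in WT against 27.5 FPKM in Null, a log2 ratio of 0.23. Igfals, which encodes the acid-labile subunit that joins IGF and IGFBP3 in blood, was at 2.14 and 3.64 FPKM, a log2 ratio of 0.56. Its direct ratio was 1.70, past 1.5-fold when no pseudocount was added. Kazald1, which encodes a protein related to the binding proteins, was at 4.83 and 6.51 FPKM (0.37). The IGFBP4 protease genes Pappa (0.0983 and 0.110 FPKM) and Pappa2 (0.0111 and 0.0164 FPKM) were close to 0 in both pools. Of the 3 genes for IGF2 mRNA-binding proteins, Igf2bp2 alone passed the filter, at 1.74 and 1.28 FPKM (-0.27).

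Growth hormone acts through its receptor, JAK2 and STAT5 to drive Igf1 transcription, and the genes of this axis did not differ in one direction. Of 7 genes, 1 was higher and 1 lower by 1.5-fold or more, against 7.87% and 6.75% of all genes compared. The median log2 ratio of the 7 was 0.01. Cish, a STAT5-induced inhibitor, was at 11.8 FPKM in WT against 2.78 FPKM in Null, a log2 ratio of -1.76. Socs2, a STAT5-induced inhibitor of growth hormone signalling, was at 1.25 and 3.27 FPKM, a log2 ratio of 0.93. These 2 inhibitor genes therefore stood on opposite sides, with Socs2 on the side of Igf1. The receptor gene Ghr was abundant, at 128 and 174 FPKM (0.44), while Stat5b was at 15.5 and 12.2 FPKM (-0.32) and Jak2 at 8.45 and 8.53 FPKM (0.01).

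A list of 9 receptor signalling genes held Insr, given above, and genes that act downstream of the receptors. None of the 9 lay past 1.5-fold, and their median log2 ratio was -0.10. Akt2, the kinase most abundant in the list, had the lowest ratio, at 87.5 and 66.4 FPKM (-0.39). Grb14, an adaptor that inhibits insulin receptors, had the highest, at 52.4 and 61.8 FPKM (0.23). The adaptor genes Irs1 (9.19 and 8.48 FPKM) and Irs2 (2.91 and 2.60 FPKM) differed little. With both columns scaled to the same sum, 1 of the 9 was lower by 1.5-fold or more, as were 1621 of all genes compared.

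Of 7 genes for mannose 6-phosphate tagging and sorting, the other task of IGF2R, 1 was lower by 1.5-fold or more and none higher. Among all genes compared, 6.75% were lower and 7.87% higher by that much. The lower gene of the list was Gnptab, which encodes the catalytic part of the tagging enzyme, at 16.6 FPKM in WT against 10.1 FPKM in Null (-0.66). Gnptg, which encodes the accessory subunit of the same enzyme, had the highest ratio, at 20.1 and 29.9 FPKM (0.55). M6pr, the smaller mannose 6-phosphate receptor and the most abundant of the list, was at 35.4 and 42.0 FPKM (0.24). The 2 mannose 6-phosphate receptor genes thus stood on opposite sides of equality, both within 1.5-fold. With both columns scaled to the same sum the list median was -0.30 and the median of all genes -0.18.

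Igf2 and Igf2r are imprinted, and 11 of 12 imprinted growth genes passed the filter. By 1.5-fold or more, 2 were higher and 2 lower, against 7.87% and 6.75% of all genes compared. The list includes Igf2 and Igf2r themselves, and its median log2 ratio of -0.11 is the value of Igf2. H19, a noncoding RNA encoded beside Igf2 and driven by shared enhancers, was the lowest, at 32.8 FPKM in WT against 15.4 FPKM in Null (-1.04). Its neighbour Igf2 showed no such difference, as given above. H19 is also abundant in skeletal muscle, and all 12 muscle fibre markers lay below 0, with 9 lower by 1.5-fold or more, a median of -0.99 and sums of 2578 and 1701 FPKM; their part in the H19 value was not tested. Peg3 was the other lower gene, at 7.27 and 3.68 FPKM (-0.82), and Cdkn1c, a cell cycle inhibitor, was the highest, at 17.1 and 31.0 FPKM (0.83). Ndn was at 26.5 and 42.1 FPKM (0.65), and Dcn, the most abundant, at 121 and 162 FPKM (0.41). Dcn is also counted among the fibroblast markers below.

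**Figure D4:**
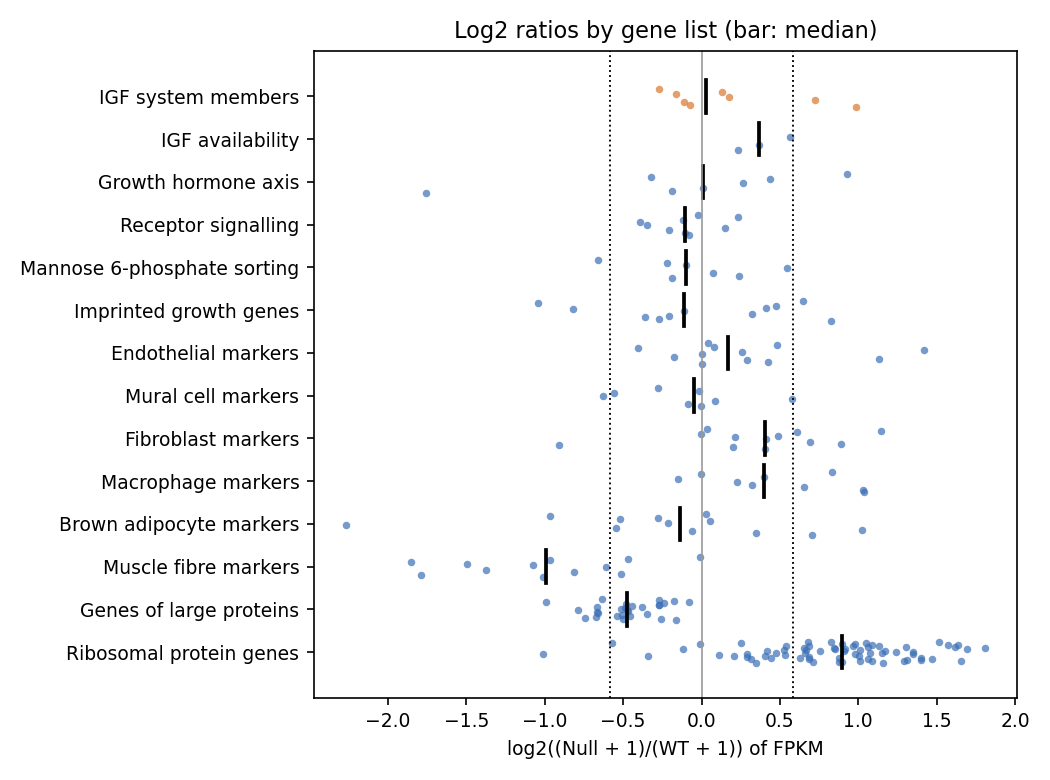
Log2 ratio of Null to WT, log2((Null + 1)/(WT + 1)) of FPKM, for each gene whose mean was 1 FPKM or more in the IGF system (orange) and in 13 other lists (blue), with the list median as a black bar and dotted lines at 1.5-fold. The IGF members centre near 0 with Igf1 and Igfbp7 to the right, ribosomal protein genes lie mostly to the right and genes of large proteins all to the left.

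Cell type markers were given beside Igf1 and Igfbp7 because the samples are whole tissue, in which more cells of a type and more RNA per cell cannot be told apart. All 12 brown adipocyte markers were present. By 1.5-fold or more, 2 of them were higher (Cox7a1, log2 ratio 1.02, and Adipoq, 0.71) and 2 lower (Elovl3, -2.27, and Dio2, -0.97). The list median was -0.14. Of all genes compared, 7.87% were higher and 6.75% lower by that much, shares that apply to each marker list below. With both columns scaled to the same sum, 1 marker was higher and 4 were lower. In that setting 469 of all genes compared were higher and 1621 lower. Ucp1, the uncoupling protein, was at 3016 FPKM in WT against 2487 FPKM in Null (-0.28). All 12 endothelial markers were detected in both pools. Of these, 2 were higher by 1.5-fold or more and none lower, with a median log2 ratio of 0.17 and sums of 397 FPKM in WT against 546 FPKM in Null. The higher ones were Cldn5, a junction protein (27.9 and 76.1 FPKM, 1.42), and Egfl7, a secreted vessel factor (63.7 and 141 FPKM, 1.13). In contrast, Cdh5 (61.0 and 61.2 FPKM, 0.01) and Pecam1 (46.8 and 48.2 FPKM, 0.04) were nearly equal. Flt1 had the lowest log2 ratio of the endothelial list, at -0.41, and Kdr was at -0.17. The ratios of these 2 markers lay below 0 and those of the other 10 above it. Per Cdh5 FPKM there were 1.22 Igfbp7 FPKM in WT and 2.01 in Null, and per Egfl7 FPKM 1.16 and 0.873, so the comparison of Igfbp7 with endothelium depended on the marker. The 8 mural cell markers had sums of 178 and 179 FPKM and a median of -0.05, with none higher and 1 lower by 1.5-fold or more.

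Of 12 fibroblast markers, 4 were higher and 1 lower by 1.5-fold or more, against 7.87% and 6.75% of all genes compared. Their median log2 ratio was 0.41, with sums of 374 FPKM in WT against 544 FPKM in Null. Col3a1, a fibrillar collagen, had the highest ratio, at 61.6 and 137 FPKM (1.14), and Pi16 the lowest, at 17.5 and 8.82 FPKM (-0.91). Per Col3a1 FPKM there were 0.127 Igf1 FPKM in WT and 0.120 in Null, and per Dcn FPKM 0.0646 and 0.102. Of 9 macrophage markers, 4 were higher by 1.5-fold or more and none lower, with a median of 0.40 and sums of 105 and 157 FPKM. No endothelial, mural, fibroblast or macrophage marker was at 0. Of 5 mesothelial markers only Lrrn4 passed the filter, at 1.23 and 1.28 FPKM, with Wt1 listed at 0 in both pools, and the 4 Schwann cell markers had sums of 104 and 114 FPKM with 2 lower by 1.5-fold or more. Of 4 hepatocyte markers, Alb was at 0.340 and 0.413 FPKM and Ttr at 0.0952 and 0.135 FPKM, near 0 in both pools. The apolipoprotein genes Apoa1 (0.393 and 2.07 FPKM, 1.14) and Apoc3 (4.38 and 6.19 FPKM, 0.42) passed the filter, Apoa1 higher by over 2-fold. Igf1 and Igfbp7 are expressed in several of these cell types, and the part of the markers' cells in either result was not tested.

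Ratios of 2 further gene lists were set beside the members. Ribosomal protein genes, which have short mRNAs, centred on a log2 ratio of 0.90 (median). By 1.5-fold or more, 51 of 70 were higher and 1 lower, against 7.87% and 6.75% of all genes compared. Many have near-identical copies, so their values are uncertain. Of 30 genes of very large proteins, which have long mRNAs, 28 passed the filter, with a median of -0.48. All 28 lay below 0, as did 49.4% of all genes compared. This list was drawn up after the values of other genes had been seen. The receptors IGF1R and IGF2R are large proteins with long mRNAs, and most binding proteins are small with short ones. The receptor ratios of -0.16 and -0.27 lay above the median of the large protein genes, and the Igfbp7 ratio of 0.72 lay below the median of the ribosomal protein genes. The Igf1 ratio of 0.99 lay above both list medians. Transcript lengths were not used here, and the part of length in the members' ratios was not tested.

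The Igf1 and Igfbp7 ratios also depended on scaling. The columns summed to 508701 FPKM in WT against 590327 FPKM in Null, and scaling both to the same sum moved the median of all genes by -0.19. The log2 ratio of Igf1 was then 0.79 against 0.99 as deposited, and that of Igfbp7 0.51 against 0.72, similar shifts. Relative to the new median they were 0.97 and 0.69. Igf1 stayed past 1.5-fold in that setting and Igfbp7, which was nearer the line as deposited, did not. After quantile normalization Igfbp7 was at 0.593, barely past the 1.5-fold line at 0.585. Of all calls at 1.5-fold, 53.8% were higher in Null as deposited (913 higher, 783 lower) and 22.4% with equal sums (469 higher, 1621 lower). In that setting 2 fibroblast markers and 3 macrophage markers were still higher by 1.5-fold or more, 1 imprinted growth gene was, and the medians of the endothelial and growth hormone lists were 0.01 and -0.18.

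**Figure D5:**
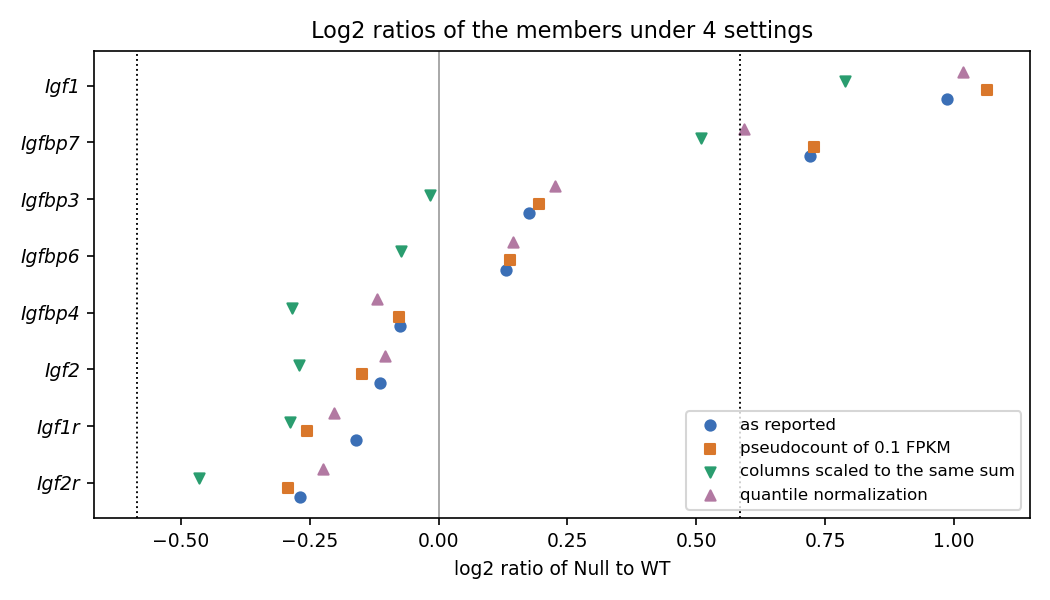
Log2 ratio of Null to WT of the 8 members as reported (circles), with a pseudocount of 0.1 FPKM (squares), with both columns scaled to the same sum (downward triangles) and after quantile normalization (upward triangles); dotted lines mark 1.5-fold. Igf1 lies past the upper line in all 4 settings and Igfbp7 in 3 of them, barely so with quantile normalization (0.593 against a line at 0.585). Igfbp3 and Igfbp6 lie on both sides of 0.

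MicroRNAs reported to act on Igf1, Igf1r or their relatives were mostly at like levels in the 2 libraries. Of the 20 in this list with a mean of at least 10 RPM, 4 were lower and 1 higher in Null by 1.5-fold or more, against 6.19% lower and 8.05% higher among the 323 microRNAs at that level. The 4 lower ones were the muscle microRNAs miR-1a-3p (1029 RPM in WT against 289 RPM in Null), miR-206-3p (63.1 and 14.7 RPM) and miR-133a-3p (31477 and 11510 RPM), and the liver microRNA miR-122-5p (25.2 and 4.44 RPM). miR-1a-3p and miR-206-3p are reported to act on Igf1 and belong to 1 seed family; the sequence of miR-206-3p is shown with its seed in capitals.
miR-206-3p: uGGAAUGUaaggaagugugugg
These muscle microRNAs were lower together with the muscle fibre markers given above, and no site in Igf1 was searched. The higher one was the myeloid microRNA miR-223-3p, at 93.0 and 141 RPM, a log2 ratio of 0.60, or 0.42 once the median microRNA ratio was subtracted. The 8 let-7 microRNAs, reported to act on Igf1r, lay within 1.5-fold, led by let-7f-5p at 21919 and 20990 RPM. miR-378a-3p, the most abundant of the list and reported to act on Igf1r, was at 188029 and 162708 RPM. The microRNAs hosted by Igf2 (miR-483) and H19 (miR-675) were not among the 386 listed, whose lowest mean is 5.10 RPM, and were not analysed here.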

How the data were processed

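Per the labels' protocols, poly(A) RNA of brown fat was sequenced with a TruSeq kit on an Illumina instrument, and small RNA libraries were made from RNA extracted with miRNeasy columns. Per the submitters' processing notes, the build was mm9 and the tools were TopHat, BWA, CASAVA, DESeq and edgeR; the sources used here give no role or version for them, and no annotation. mRNA values were deposited by the authors as FPKM, 1 column per genotype, so the 3 libraries of a genotype were pooled or averaged; depth and error are unknown. The microRNA values are a signal headed RPM per the file headers, from 1 library per genotype; the authors' deposited table also holds p-values and the ratio of Null to WT, which were not used.

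Ratios were computed in Python 3.11.15 with pandas 2.3.3 as log2((Null + 1)/(WT + 1)) for genes whose mean was 1 FPKM or more (microRNAs: 10 RPM), called at 1.5-fold or 2-fold, with no test between genotypes. The code that counts 2-fold calls was run on simulated pools of more abundant genes with larger planted changes. That run did not cover the 1.5-fold calls, genes of low level or variation between animals, so it lends the reported counts no weight. A value listed at 0 can be a failed estimate: 5796 genes were at 0 in WT and 6016 in Null, and Fasn was at 0 in WT against 1641 FPKM in Null. Values above 0 can be doubtful too, as for Gapdh at 3.38 FPKM in WT against 0.463 FPKM in Null. Alternatives were another pseudocount, other filters, equal column sums, quantile normalization, median centring and direct ratios, the last 2 added after seeing the data, as was the list of large proteins. All 9 members are named; of the other pathway lists, the highest, lowest and most abundant genes, those past 2-fold and those whose role bears on an IGF member. Members and lists were chosen with earlier results of these data known. Symbols matched RefSeq entries for promoters of all 9 members.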

Additional observations from a re-analysis of the deposited data

How the results depend on the processing

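The number of members higher in Null by 2-fold or more was 0 as reported and 1 with a pseudocount of 0.1 FPKM, 1 after quantile normalization and 1 for the direct ratio with no pseudocount. In each case that gene was Igf1, with log2 ratios of 1.06, 1.02 and 1.07. With both columns scaled to the same sum the log2 ratio of Igfbp7 was 0.51 and the number of members higher by 1.5-fold or more was 1. No member was lower by 1.5-fold or more in any setting run. A log2 ratio or median was counted as moved when it crossed the 1.5-fold line or shifted by that much. A count, share or other ratio was counted as moved when it changed by more than 1.5-fold. These rules were used since no replicate spread was available. By them 83 of the 88 alternative values of the main results did not move. The 88 include counts of lower members that were 0 in every setting. They also include filter settings, which change no member's ratio, and median centring, where the median removed was 0.01. Little movement was possible in these settings, so the 83 are no measure of robustness. No paired analysis was possible because the table holds 1 combined column per genotype, and for the same reason no replicate could be left out in turn. The comparison with genes of like protein length was not run because no table of protein lengths was used here. Neither depth nor an error between animals is known for any FPKM value, so the size of a difference cannot be set against animal variation.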
